A study of Mus musculus with 6 samples.

Results

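Osteocytes are the cells left embedded in bone matrix after osteoblasts, the cells that build bone, have walled themselves in. The 10 genes described here are those commonly used to mark osteocytes: Dmp1, Sost, Mepe, Phex, Fgf23, Pdpn, Cd44, Gja1, Hyou1 and Fam20c. They were taken by gene symbol from an expression table of 53797 mouse genes, and each symbol matched 1 row. All RNA came from MLO-Y4, a murine osteocyte-like line that is 1 clone, derived from long bone of mice carrying the SV40 large T antigen under the osteocalcin promoter. The LIPUS group was 3 cultures given low-intensity pulsed ultrasound at 1.5 MHz and 30 mW/cm2 for 20 min, and the Control group was 3 cultures left without stimulation. Both groups were grown in the same medium, and per the methods treated and untreated wells shared 6-well plates in which 3 transducers were on. RNA was taken 30 min after the stimulation ended. The study names leakage of ultrasound into the control wells as possible, and describes a control culture that lay apart from the others.

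The markers follow the life of an osteocyte. Podoplanin (Pdpn), CD44 and connexin 43 (Gja1) belong to the young, dendrite-forming cell: podoplanin drives the outgrowth of processes, CD44 binds hyaluronan in the matrix, and connexin 43 forms the gap junctions by which the processes talk to each other. Dmp1, Mepe and Phex come with mineralising matrix, and the secreted kinase Fam20c phosphorylates proteins such as Dmp1. Sost, which encodes the Wnt inhibitor sclerostin, and Fgf23, which encodes the hormone that makes the kidney shed phosphate, mark the mature, buried cell. Hyou1 is a chaperone of the endoplasmic reticulum found in most secreting cells.

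The sequences just upstream of these genes are shown first, because the markers share a feature there that does not go with their level. RefSeq promoters of 300 bases, 250 before and 50 after the gene's RefSeq start, were given for 9 of the 10 genes on GRCm38.p6 (Hyou1 had no entry). Of those, 8 held between 3 and 8 CpG dinucleotides, and Fam20c held 47. RefSeq starts can differ from the GENCODE M21 positions given further on. The Fam20c stretch lies inside the gene as GENCODE places it, from 138754514. The 250 bases before the start are printed 5′ to 3′ on the gene's own strand, with every CpG in capitals: Fam20c (chr5:138754831-138755080, plus strand) as the CpG-rich member, Pdpn (chr4:143299565-143299814, minus strand) as the most abundant, Dmp1 (chr5:104202367-104202616, plus strand) as the expressed member that differed most between the groups, and Mepe (chr5:104325079-104325328, plus strand) as one listed at 0.
Fam20c: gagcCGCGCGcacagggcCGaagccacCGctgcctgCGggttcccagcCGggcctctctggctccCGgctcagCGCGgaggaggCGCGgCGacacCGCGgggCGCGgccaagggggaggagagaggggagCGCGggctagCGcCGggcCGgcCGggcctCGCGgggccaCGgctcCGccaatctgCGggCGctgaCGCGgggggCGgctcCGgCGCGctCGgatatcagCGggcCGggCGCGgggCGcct
Pdpn: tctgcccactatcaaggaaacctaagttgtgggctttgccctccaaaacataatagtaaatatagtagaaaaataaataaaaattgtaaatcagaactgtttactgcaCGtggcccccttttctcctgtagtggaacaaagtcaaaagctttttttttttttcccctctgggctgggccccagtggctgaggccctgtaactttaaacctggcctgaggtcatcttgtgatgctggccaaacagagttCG
Dmp1: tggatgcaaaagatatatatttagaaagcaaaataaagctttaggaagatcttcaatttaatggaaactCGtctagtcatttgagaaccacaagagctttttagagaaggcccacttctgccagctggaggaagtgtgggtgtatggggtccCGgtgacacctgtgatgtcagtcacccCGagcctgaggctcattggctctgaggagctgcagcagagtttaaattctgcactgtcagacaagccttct
Mepe: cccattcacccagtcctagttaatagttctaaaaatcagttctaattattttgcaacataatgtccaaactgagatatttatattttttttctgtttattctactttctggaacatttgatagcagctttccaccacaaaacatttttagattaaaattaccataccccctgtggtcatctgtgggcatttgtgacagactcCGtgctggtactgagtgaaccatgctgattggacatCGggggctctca

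In these 4 stretches the capitals number 41 CpGs for Fam20c, 2 for Pdpn, 3 for Dmp1 and 2 for Mepe. Values in the expression table are FPKM, read fragments scaled to transcript length and library size, so levels of different genes can be set side by side. The deposited table gives a single FPKM for each group, made from its 3 libraries, and therefore carries no error between cultures. No test of these group values was run here, and the authors' own was not used. Beside each value the table has a status, which is OK where Cuffdiff, the authors' comparison program, had enough data to run its own test and NOTEST where it had not.

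The markers split into 6 that were expressed in both groups and 4 that were absent or nearly so. The expressed ones were Pdpn, Cd44, Gja1, Hyou1, Fam20c and Dmp1, all with status OK. Phex was above 0 in the LIPUS group alone, and Sost, Mepe and Fgf23 were at 0 in both groups, all 4 with status NOTEST. Over the table, 15.1% of genes had status OK. Of the 21889 protein-coding genes, 55.3% were above 0 in both groups and 39.6% were at 0 in both. A 0 in such a table can be a failed estimate. All 77 ribosomal protein genes, which every cell uses, were above 0 in both groups, but this does not tell whether the estimate of a gene at low level failed.

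**Figure D1:**
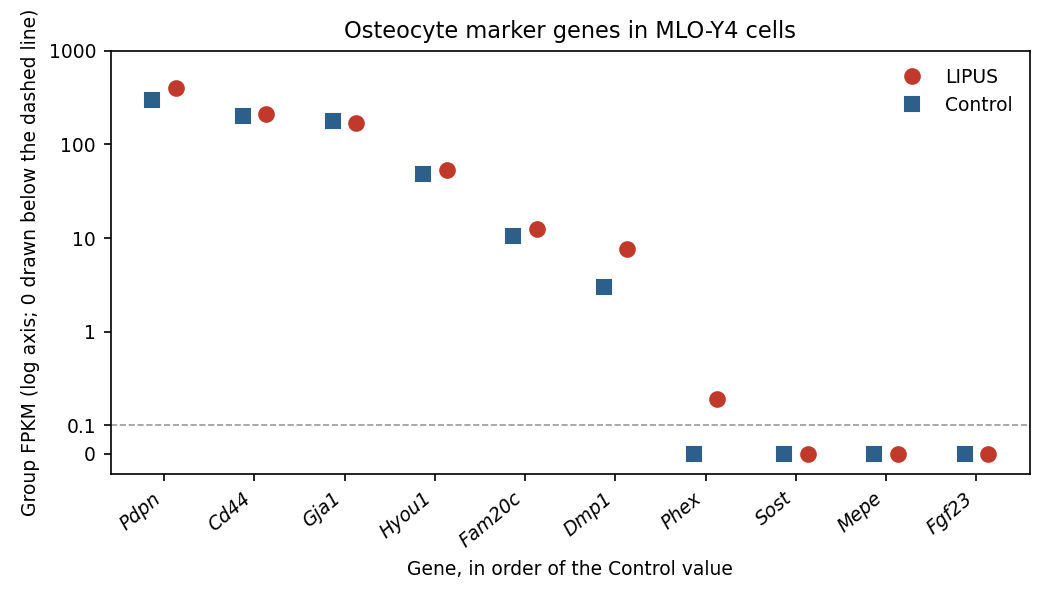
FPKM of the 10 osteocyte marker genes in the LIPUS (circles) and Control (squares) groups on a log axis, with values of 0 drawn below the dashed line; each point is 1 group value made from 3 libraries and has no error bar. Pdpn, Cd44 and Gja1 lie above 100 FPKM in both groups, Dmp1 shows the widest gap among the 6 markers expressed in both groups, and Sost, Mepe and Fgf23 sit at 0.

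Podoplanin was the most abundant marker. Pdpn (ENSMUSG00000028583, chromosome 4 of GRCm38, 143267431 to 143299564, minus strand) was listed at 402 FPKM with LIPUS and at 295 FPKM in Control. Only 238 genes with LIPUS and 285 in Control had a higher FPKM, out of 15161 and 15207 genes above 0. On the scale of log2(FPKM + 1) used for every difference below, it was 0.44 higher with LIPUS, a ratio of 1.36 between the deposited values.

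CD44 and connexin 43 came next. Cd44 (ENSMUSG00000005087, chromosome 2, 102811141 to 102901665, minus strand) stood at 212 FPKM with LIPUS and 200.2 FPKM in Control, a log2 difference of 0.08. Gja1 (ENSMUSG00000050953, chromosome 10, 56377330 to 56402513, plus strand) stood at 170 FPKM with LIPUS and 176 FPKM in Control, a log2 difference of -0.06, and was the single expressed marker that was lower with LIPUS. Cd44 exceeded Gja1 by 1.25 times with LIPUS and 1.13 times in Control. Without a value for each culture it cannot be said whether these neighbours differ beyond their spread.

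The next level was held by the chaperone and the kinase. Hyou1 (ENSMUSG00000032115, chromosome 9, 44379490 to 44392369, plus strand) was at 53.2 FPKM with LIPUS and 48.8 FPKM in Control, a log2 difference of 0.12. Fam20c (ENSMUSG00000025854, chromosome 5, 138754514 to 138810077, plus strand) was at 12.5 FPKM with LIPUS and 10.6 FPKM in Control, a log2 difference of 0.23. Gja1 lay 3.62 times above Hyou1 in Control and Hyou1 4.61 times above Fam20c, wider steps than those among the 3 surface proteins. Of the genes above 0 in Control, 86.7% lay below Hyou1 and 57.1% below Fam20c.

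Dmp1, an acidic matrix protein of mineralising bone and the marker with the closest tie to the osteocyte among those expressed, was at the bottom of the list. Dmp1 (ENSMUSG00000029307, chromosome 5, 104202613 to 104214102, plus strand, 6 exons) was at 7.65 FPKM with LIPUS and 3.04 FPKM in Control, a log2 difference of 1.10 and a ratio of 2.52. Pdpn exceeded it by 97.3 times in Control and by 52.5 times with LIPUS. In Control only 36.0% of the genes above 0 lay below Dmp1, against 51.1% with LIPUS. The order of the 6 markers from Pdpn to Dmp1 was the same in both groups.

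Taking 1.5-fold as the mark and genes with a mean of both groups of at least 1 FPKM, 1 of the 6 expressed markers, Dmp1, differed by that much. Over all 11536 such genes, 11.6% were past 1.5-fold in either direction, 5.63% higher and 5.95% lower with LIPUS, and 129 had a larger positive log2 difference than Dmp1. The share was 19.2% among genes with a mean of 1 to 10 FPKM, where Dmp1 lies, and 6.13% among those at 10 FPKM or more, where the other 5 lie. A count of 1 in 6 is near the share of all genes at these levels. Of the 6 markers 5 were higher with LIPUS by some amount and their median log2 difference was 0.17, beside -0.0017 for all genes and 49.8% of all genes higher.

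**Figure D2:**
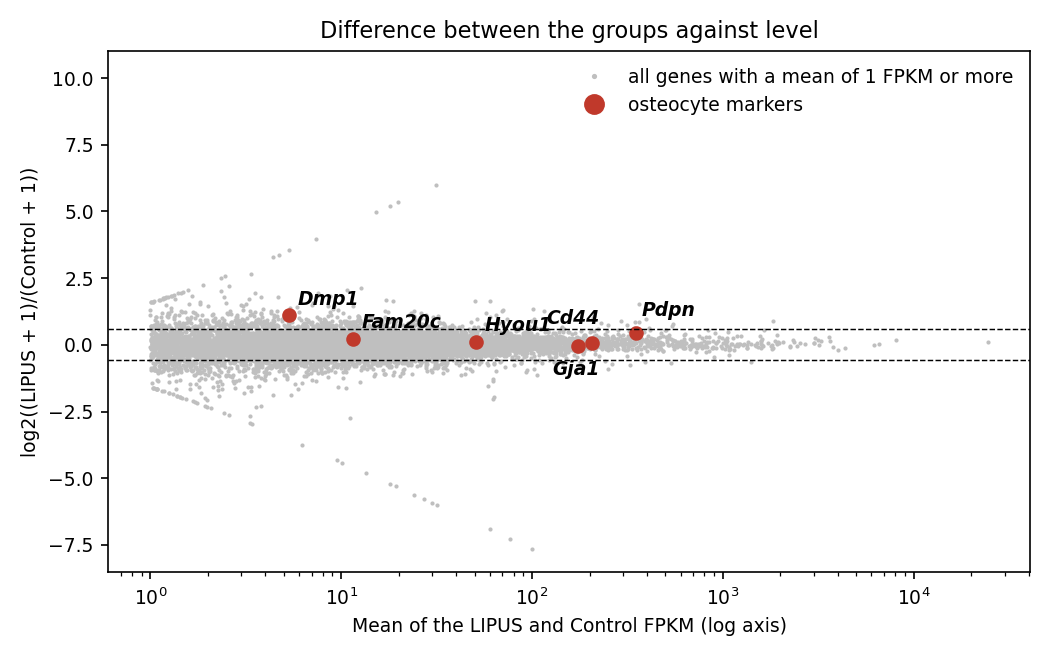
Log2 difference between the LIPUS and Control values (vertical) against the mean FPKM of both groups (log axis) for 11536 genes with a mean of 1 FPKM or more (grey) and the 6 expressed osteocyte markers (red); dashed lines mark 1.5-fold. Dmp1 lies above the upper line at 1.10, and the other 5 markers lie between -0.06 and 0.44.

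For Dmp1 the group values can be taken further. In genes with a single annotated transcript of 1500 to 9000 bases, the group FPKM multiplied by the transcript length less 162 to 169 bases fell on sums of multiples of 3 steps, as they would if each step were a fragment in 1 of the 3 libraries. The steps fitted 81.7% of 1134 such genes in LIPUS and 80.5% of 1149 in Control. Read as depths, they put the LIPUS libraries within 1.02 times of each other, and the deepest Control library at 1.35 times the shallowest. If FPKM were scaled by the library total, a step of 1 fragment would put that total at 1309000 to 1771000 fragments, and the methods state far more reads. The steps are called fragments here because nothing smaller was seen regularly, and the counting intervals and limits given below hold only if a step is 1 fragment. Recovered numbers of 10 to 19 fragments varied between the libraries of a group 1.24 times as much as Poisson counting gives in LIPUS and 1.06 times in Control, and those of 20 to 39 fragments 1.43 and 1.66 times. Which recovered library is which replicate cannot be told from the table.

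Dmp1 has a single transcript, of 2764 bases, and its Control value was matched by 4, 0 and 28 fragments in the 3 Control libraries. These numbers meet the deposited value within a relative 1.4e-06, less than its rounding of 1.6e-06, and the next nearest combination (22, 6 and 9) missed by 1.3e-05. They correspond to 0.87, 0 and 8.24 FPKM in the single libraries (3.04 ± 4.53 FPKM, SD, n = 3). On this split nearly all of the Control value came from 1 library, which held 87.5% of the fragments. Among 95 genes with 20 to 39 recovered Control fragments, the fullest library held a median of 42.3%, and Dmp1 alone reached 87.5%.

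The LIPUS value was matched best by 39, 26 and 27 fragments, or 9.60, 6.53 and 6.81 FPKM (7.65 ± 1.70 FPKM, SD, n = 3). This split is less firm, because the 3 LIPUS steps are close to each other: the best misfit was 4.1e-07, and 11 more combinations lay within 2e-05, the nearest of them 38, 33 and 21. The 92 fragments of the LIPUS group have a 95% exact Poisson interval of 74.2 to 113, and the 32 of the Control group one of 21.9 to 45.2, which covers counting error only and not the spread between cultures. On the best-fitting splits the groups overlap: the highest Control library, at 8.24 FPKM, lies above 2 of the 3 LIPUS libraries. Since it also lies above the LIPUS mean of 7.65 FPKM, it lies above at least 1 of them however the LIPUS fragments were split. This holds for the Control split of 4, 0 and 28 fragments, and was not worked out for the split of 22, 6 and 9. On the best-fitting splits the difference in means of 4.61 FPKM was close to the SD of 4.53 FPKM within Control and larger than that of 1.70 FPKM within LIPUS. Other LIPUS splits within 2e-05 spread more widely, for example 0, 1.01 and 21.9 FPKM, so the SD within LIPUS is not settled. A two-sided exact permutation test gave p = 0.3, where 3 libraries against 3 allow no p below 0.1, so the test says little here. Over the 12 combinations for LIPUS, each set against the Control split of 4, 0 and 28, the exact p lay between 0.2 and 0.7. The Control split of 22, 6 and 9, also within 2e-05, was not tried. Without the highest Control library the Control mean is 0.43 FPKM, from 4 fragments in 2 libraries, and the log2 difference is 2.59 in place of 1.10. Leaving out each of the other 5 libraries in turn, an alternative chosen after the data were seen, gave 0.64 to 1.19.

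**Figure D3:**
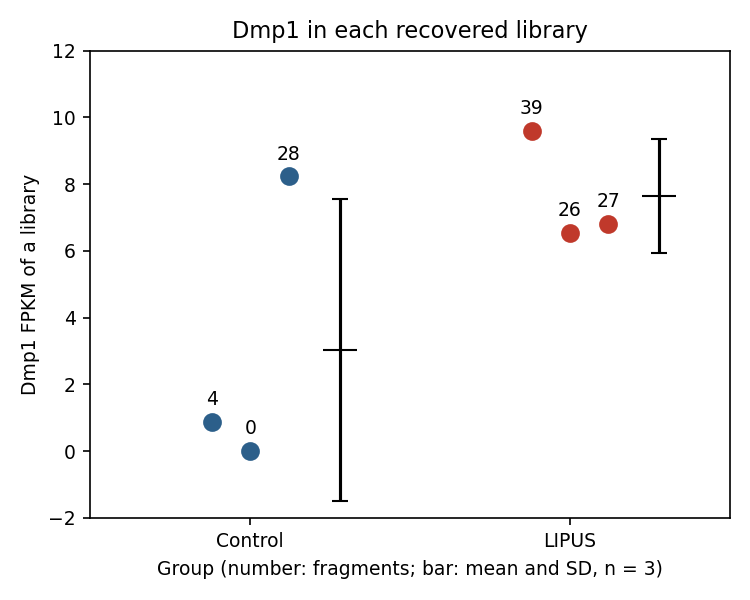
Dmp1 FPKM in each library as recovered from the group values, for Control (blue) and LIPUS (red). Numbers are the recovered fragments and bars show the mean and SD of the 3 libraries. Each group is drawn at its best-fitting split, and the LIPUS split is 1 of 12 within 2e-05. The highest Control library (28 fragments, 8.24 FPKM) lies among the LIPUS libraries, and the other Control libraries are at 0.87 and 0 FPKM.

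The spread of Dmp1 in Control was set beside other genes recovered in the same way. With at least 40 fragments over both groups, 137 genes could be recovered, and in 14 of them (10.2%) the libraries of the groups did not overlap. The Control library that carried most Dmp1 was nearer to the LIPUS mean than to the mean of the other Control libraries in 54.0% of these genes, and the remaining Control libraries were in 57.7% and 49.6%. Most of these genes did not separate the groups, so these shares cannot tell which Control library was most like LIPUS. The collagen X gene Col10a1, a marker of hypertrophic cartilage, had 16, 3 and 10 fragments in the Control libraries taken in the same order and 8, 7 and 9 in the LIPUS libraries, so its fullest Control library was a different one. Whether the ultrasound that may have reached a control well had a part in the Dmp1 values was not tested.

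Phex, an endopeptidase of the osteocyte membrane whose loss raises FGF23, was listed at 0.190 FPKM with LIPUS and at 0 in Control. Phex (ENSMUSG00000057457, chromosome X, 157162075 to 157415312, minus strand) has 3 annotated transcripts, and the LIPUS value is near that of 1 fragment in each LIPUS library on the shortest locus among them, a single-exon transcript of 3588 bases at 157162075 to 157165662, which ends where the 22-exon transcript ends. The misfit was 7.9e-06, more than for Dmp1, and neither of the other transcripts gave a match within 1e-04. At this level no difference between the groups was detectable.

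Sost, Mepe and Fgf23 were listed at 0 in both groups. Sost (ENSMUSG00000001494, chromosome 11, 101962458 to 101967015, minus strand) has no recovered fragment if its 0 is a count and not a failed estimate, and a count of 0 allows an expected count of up to 3 fragments, which at its length is 0.345 FPKM with LIPUS and 0.402 FPKM in Control. For Mepe (ENSMUSG00000053863, chromosome 5, 104325329 to 104338611, plus strand), a matrix protein whose acidic fragment restrains mineralisation, the limits were 0.432 and 0.505 FPKM. For Fgf23 (ENSMUSG00000000182, chromosome 6, 127072902 to 127081408, plus strand) they were 0.398 and 0.464 FPKM. All 3 limits lie below the Control value of every expressed marker, and they cover counting error only. These genes were not detectable at this depth, and no fold between the groups can be given for them.

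The genes around Dmp1 and Mepe on chromosome 5 form the SIBLING cluster, a row of acidic phosphoproteins of bone and tooth that includes Dspp, Ibsp and Spp1. Within 350 kb of the start of Dmp1 this row held both extremes. Spp1, which encodes osteopontin and begins 233 kb downstream, was at 4158 FPKM with LIPUS and 4514 FPKM in Control, a log2 difference of -0.12. Dspp, which starts at -31.9 kb, Ibsp, at 96.6 kb, and Mepe, at 123 kb, were all at 0. Sparcl1, a matrix glycoprotein gene at -124 to -88.9 kb on the other strand, was at 98.1 FPKM with LIPUS and 50.2 FPKM in Control, a log2 difference of 0.95. The flanking Nudt9 (66.9 and 59.0 FPKM) and Pkd2 (23.3 and 22.2 FPKM) differed by 0.18 and 0.06.

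Genes that act with the markers were counted from lists drawn up with earlier results of these data known. Among 15 genes of phosphate handling and of the FGF23 axis, Kl, the co-receptor of FGF23, was at 0, as were Pcsk5, Cyp24a1 and Fgfr2, and 11 had a mean of at least 1 FPKM. Of these 11, 1 was past 1.5-fold higher with LIPUS and 2 lower, beside 5.63% and 5.95% of all genes, with a median of 0.01. Galnt3, the enzyme that protects FGF23 from cleavage by adding sugar to it, was at 3.72 and 2.04 FPKM (0.64). The vitamin D receptor Vdr was at 21.1 and 35.3 FPKM (-0.72), and Alpl, the alkaline phosphatase that frees phosphate for mineral, was at 190 and 293 FPKM (-0.63). Alpl was the most abundant of the list in Control, and the phosphate transporter Slc20a1, at 199 and 229 FPKM, was the most abundant with LIPUS. The receptor Fgfr1 (82.3 and 81.6 FPKM) stood far above Fgfr3 (3.66 and 3.81 FPKM).

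With sclerostin at 0, the receptors it meets were low or moderate: Lrp6 was at 9.35 and 9.25 FPKM, Lrp5 at 5.08 and 4.55 FPKM and Lrp4, which anchors sclerostin, at 1.45 and 1.21 FPKM. All 5 genes of this list of 11 with a mean of at least 1 FPKM were higher with LIPUS by some amount, with a median of 0.15, beside 49.8% of all genes, and 1 was past 1.5-fold, beside 11.6% of all genes, the secreted Wnt antagonist Sfrp4 (36.7 and 23.0 FPKM, 0.65). Dkk1, Dkk2, Sfrp1 and Sostdc1 were at 0, and Dkk3 was the most abundant at 57.3 and 44.5 FPKM. Sfrp2, with a mean under 1 FPKM, was at 0.116 and 1.02 FPKM.

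Connexin 43 had few peers. Of 10 genes for other connexins, pannexins and partner proteins, the most abundant were Gja4 with LIPUS (19.4 and 16.6 FPKM) and the kinase Src in Control (18.8 and 18.7 FPKM), against 170 and 176 FPKM for Gja1, and Gjb2, Gjb6 and Cdh2 were at 0. None of the 5 with a mean of at least 1 FPKM was past 1.5-fold, beside 11.6% of all genes, and their median was 0.01. The scaffold Tjp1, which binds connexin 43 at the membrane, was at 17.3 and 17.0 FPKM, a difference of 0.02. Panx3, under 1 FPKM on average, was at 0.184 and 0.864 FPKM.

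Of 14 partners of CD44 and podoplanin, 12 had a mean of at least 1 FPKM, with a median of 0.06. Of these 12, 0 were past 1.5-fold, beside 11.6% of all genes. The others were Hyal1 (0.366 and 0.508 FPKM) and Has3 (0.542 and 0.0894 FPKM). Rhoa, the small GTPase through which podoplanin reshapes actin, was the most abundant at 196 and 203 FPKM. Moesin (Msn), which ties both proteins to actin, was at 189 and 176 FPKM. Ezrin (Ezr), a relative of moesin, was at 25.9 and 37.3 FPKM, a difference of -0.51. Of the hyaluronan synthases, Has1 was at 23.8 and 18.1 FPKM (0.38) and Has2 at 25.8 and 33.4 FPKM (-0.36), and so they differed in opposite directions. The 3 actin-binding genes tied to osteocyte processes were all higher with LIPUS, beside 49.8% of all genes, and by less than 1.5-fold. They were Capg at 332 and 283 FPKM, Dstn at 239 and 167 FPKM (0.52) and Pls3 at 77.0 and 67.1 FPKM.

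The 5 genes listed beside Fam20c, kinases and partners of the secretory pathway, were expressed in both groups. Fam20a, a pseudokinase that boosts Fam20c, was at 30.3 and 38.3 FPKM (-0.33), above Fam20c itself in both groups, and the xylose kinase Fam20b was at 23.8 and 22.9 FPKM (0.06). None of the 5 was past 1.5-fold, beside 11.6% of all genes, and 4 were higher with LIPUS by some amount, beside 49.8% of all genes. The most abundant was Pxylp1, a phosphatase that undoes the step of Fam20b, at 70.9 and 61.5 FPKM.

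Chaperone and stress genes that act beside Hyou1 differed by small amounts. All 17 genes of the list had a mean of at least 1 FPKM, and 16 of them were higher with LIPUS, the exception being calnexin (Canx, 265 and 276 FPKM). None was past 1.5-fold on the log2(FPKM + 1) scale, beside 11.6% of all genes. Their median was 0.09, beside -0.0017 for all genes and 0.12 for Hyou1, and 49.8% of all genes were higher. The most abundant was calreticulin (Calr), at 1538 and 1466 FPKM. Hspa5, the chaperone BiP for which Hyou1 acts as exchange factor, was at 585 and 513 FPKM (0.19). The widest differences were those of Sdf2l1 (15.4 and 10.1 FPKM, 0.57) and Dnajb9 (11.3 and 7.71 FPKM, 0.50), both partners of BiP. The deposited Sdf2l1 values have a ratio of 1.53, which falls below 1.5-fold only once 1 FPKM is added to each. An ER stress element, read as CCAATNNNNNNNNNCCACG on either strand, was in a promoter of 7 of the 15 list genes with an entry (Calr, Canx, Creld2, Dnajc3, Hsp90b1, Hspa5 and Pdia6) and in 0.119% of all 32851 promoters. The first share is by gene, over any of its promoters, and the second by promoter, so they are not like for like. The list was also chosen for chaperone and stress genes. None of the 9 marker promoters held it.

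**Figure D4:**
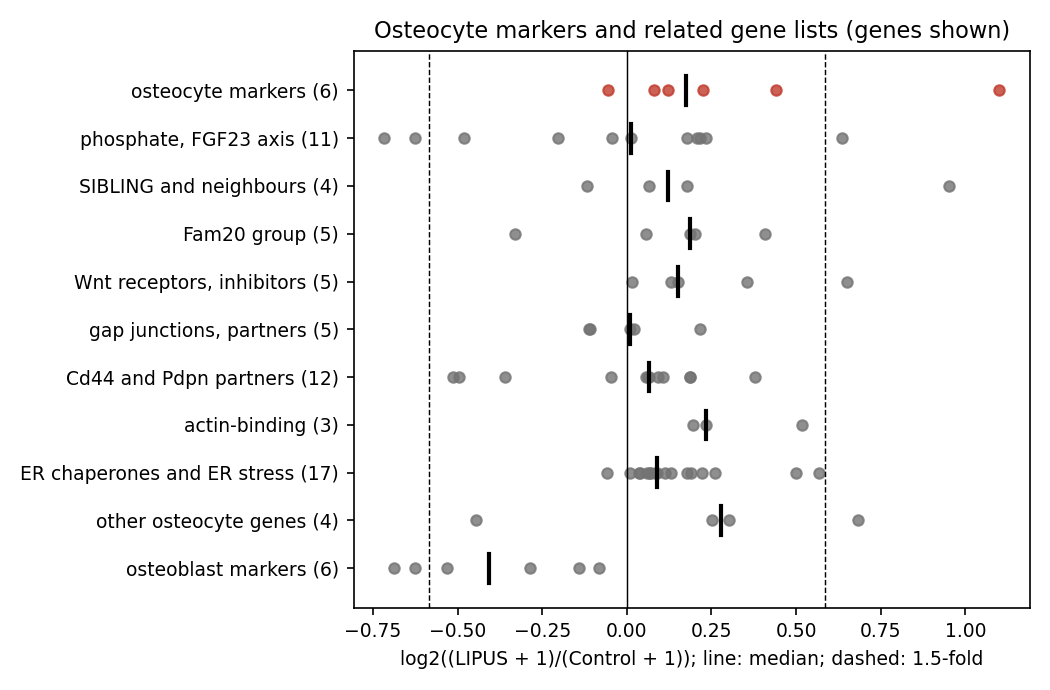
Log2 difference between the LIPUS and Control values for the 6 expressed osteocyte markers (red) and the genes of 10 related lists (grey) with a mean of at least 1 FPKM; numbers in brackets are the genes shown, the short black lines are medians and the dashed lines mark 1.5-fold. The 6 osteoblast markers all lie below 0 with a median of -0.41, and the expressed osteocyte markers have a median of 0.17.

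MLO-Y4 cells also carried osteoblast markers, and no test of the difference between these and the osteocyte markers was run. Their sum was 1245 FPKM with LIPUS and 1550 FPKM in Control, made up mainly of the collagens Col1a1 (731 and 891 FPKM) and Col1a2 (303 and 334 FPKM). All 6 with a mean of at least 1 FPKM were lower with LIPUS, with a median of -0.41, beside 49.8% of all genes higher, and 2 were past 1.5-fold, beside 5.95% of all genes lower by that much: Alpl and the bone transcription factor Runx2 (14.8 and 24.4 FPKM, -0.69). Ibsp was at 0, and the osteocalcin gene Bglap, under 1 FPKM on average, was at 1.58 FPKM with LIPUS and 0 in Control. Of 8 other genes used to mark osteocytes, Ackr3 was the most abundant at 152 and 123 FPKM, Dkk1 and Ptprz1 were at 0, and 1 of the 4 with a mean of at least 1 FPKM was past 1.5-fold higher, beside 5.63% of all genes, the osteoclast-forming cytokine Tnfsf11 (RANKL) at 4.19 and 2.23 FPKM (0.68).

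Markers of endothelial and epithelial cells were at or near 0, and those of blood cells were low. Of 9 haematopoietic and osteoclast markers 5 were at 0, among them the leukocyte antigen Ptprc, and the list summed to 3.11 FPKM with LIPUS and 5.76 FPKM in Control, most of it Cd68 (1.72 and 5.32 FPKM). The list also held Acp5, at 1.10 and 0.204 FPKM. The 6 endothelial and lymphatic markers summed to 0.0715 and 0.673 FPKM with Cdh5, Kdr, Lyve1 and Prox1 at 0, so podoplanin was seen without the lymphatic markers Lyve1 and Prox1. The 6 epithelial markers summed to 0.514 and 0.201 FPKM, with 5 at 0. Of 5 chondrocyte markers 1 was at 0, the aggrecan gene Acan, and they summed to 9.53 and 11.6 FPKM, mostly Col2a1. Among 4 adipocyte markers, Pparg was at 23.8 and 19.2 FPKM and Fabp4 at 30.4 and 52.3 FPKM (-0.76), while Plin1 was at 0. Among 5 muscle markers Acta1 was at 5.62 and 1.97 FPKM (1.16), and Myod1 and Myog were at 0. Of the markers that name this line osteocyte-like, the surface markers Pdpn, Cd44 and Gja1 were present in both groups, and Sost, Fgf23 and Mepe were not detectable. Dmp1 was low. On the best-fitting split, and if a step is 1 fragment, it was nearly missing from 2 of the 3 recovered Control libraries.

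The CpG counts of the promoters can now be read beside these levels. Genes with a mean of 10 FPKM or more had a median of 22.5 CpGs in 300 bases (lower quartile 16, 5212 genes), and genes at 0 in both groups had a median of 3 (upper quartile 9, 6203 genes). Pdpn, Cd44 and Gja1, at 7, 6 and 8 CpGs, lay below the lower quartile of genes at their level, and nearer the counts of the silent Sost, Fgf23 and Mepe, at 7, 6 and 3. Dmp1 and Phex held 5 and 4. Fam20c, at 47, lay above the upper quartile of 30. The CpG count therefore did not separate the expressed from the silent markers.

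**Figure D5:**
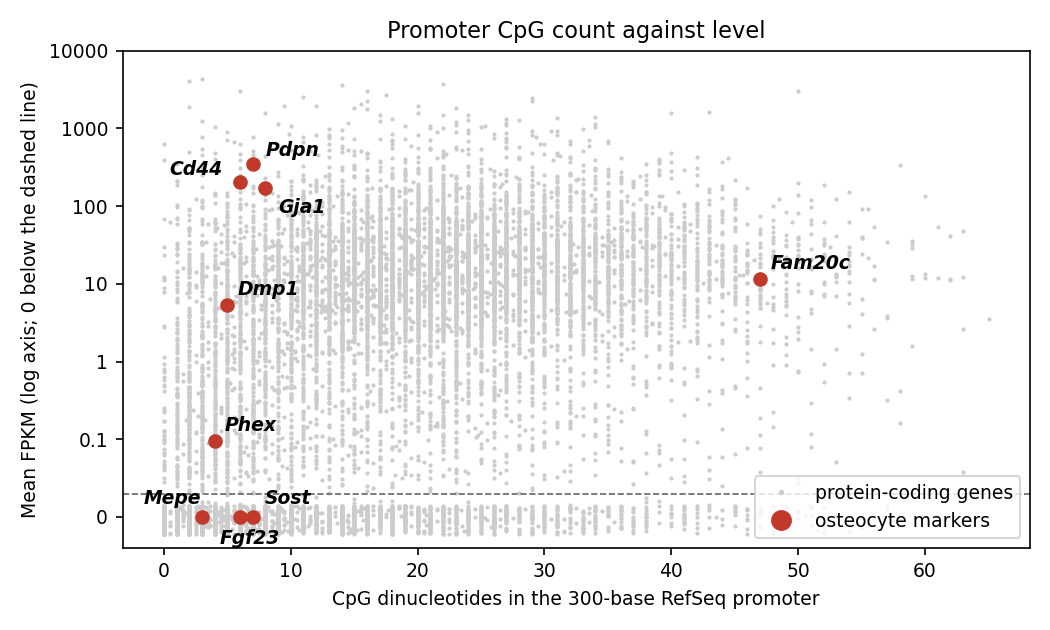
Mean FPKM of both groups (log axis, values of 0 drawn below the dashed line with vertical scatter for protein-coding genes) against the number of CpG dinucleotides in the 300-base RefSeq promoter, for protein-coding genes (grey) and 9 osteocyte markers (red). Apart from Fam20c at 47 CpGs, the markers lie at 3 to 8 CpGs from Pdpn at the top to Sost, Fgf23 and Mepe at 0.

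Other motifs were searched in the same promoters. TATAAA, searched on both strands, was found in 13.6% of all 32851 promoters and in 1 marker promoter, that of Mepe, where it began 173 bases before the gene's start. TGANTCA, the letters bound by AP-1 factors, was found in 7.81% of all promoters and in that of Gja1 alone among the markers, 19 bases before the start. A match of letters is a description and not a site shown to be used.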

How the data were processed

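RNA of 6 MLO-Y4 cultures, 3 LIPUS and 3 Control by their labels, was read as stranded paired-end libraries of 100 bases. Per the submitters' processing notes the authors used bcl2fastq 1.8.3, Trimmomatic 0.36, TopHat2 2.1.0, Bowtie2 2.2.6.0, Cufflinks 2.1.1 and Cuffdiff on GRCm38. The authors deposited 1 FPKM per group and gene. The table also holds the authors' fold change, test statistic, p-value and q-value, which were not used. The members and lists were chosen with earlier results of these data known.

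Differences are log2((LIPUS + 1)/(Control + 1)), over genes with a mean of at least 1 FPKM, and 1.5-fold was the mark. The genes named are the 10 markers, list genes past 1.5-fold, most abundant, at 0 or direct partners, and neighbours. Dnajb9, Sdf2l1, Has1, Has2, Has3, Hyal1, Ezr, Nudt9, Acp5, Col10a1 and the genes with an ER stress element were chosen after their values were seen. Positions are from GENCODE M21, matched by identifier for 99.7% of genes.

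Fragments per library were recovered from FPKM of single-transcript genes with a relative tolerance of 2e-06 beyond rounding, set after the data were seen. Exactly 1 combination fitted 75.6% of 1371 LIPUS and 73.1% of 1386 Control values. No combination fitted 266 of the LIPUS and 299 of the Control values. The depth in counts is otherwise unknown, and fragments without molecular identifiers are not independent molecules. The study's results describe 3 independent repeats, while its methods leave the RNA-seq out of their statement on independent experiments. The p-value of Dmp1 rests on recovered library values and measures the spread between those. It takes no account of wells that shared a plate. Steps were tested on simulated data. The software was scipy 1.17.1, numpy 2.4.6 and pandas 2.3.3 under Python 3.11.15, with plots by matplotlib 3.10.9. Alternatives were other pseudocounts, median centring, other folds and other filters.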

Additional observations from a re-analysis of the deposited data

How the results depend on the processing

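Of 20 differences of single markers under another pseudocount, no pseudocount or median centring, 19 kept their direction and their side of 1.5-fold, and 0 reversed. The exception was Phex, at 0.25 with a pseudocount of 1 FPKM and 1.53 with 0.1 FPKM. The count of markers past 1.5-fold was 1 and became 0 with a mean of at least 10 FPKM, which leaves Dmp1 out. The count of all genes past 1.5-fold moved from 1335 to 339 at 2-fold, to 2096 without a filter and to 413 with a mean of at least 10 FPKM. List genes past 1.5-fold went from 10 to 2 at 2-fold and to 6 with a mean of at least 10 FPKM. They rose to 12 with a pseudocount of 0.1 FPKM or with none, and to 14 without a filter. On the best-fitting splits, the Dmp1 difference over recovered libraries ran from 0.64 to 2.59 with a library left out. Depth limits the markers at or near 0, where 3 fragments are 0.345 to 0.505 FPKM. No paired analysis was possible because the table holds 1 value per group and recovered libraries carry no replicate number. For the same reason no replicate could be left out for the other markers.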
